A study of Gallus gallus with 8 samples.

Results

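The DPF+ and DPF- hens belong to 2 divergently selected chicken lines that differ in fertility, and the comparison of these lines holds 4 of the 8 arrays of the series. The 4 arrays were chosen by their titles, 2 labelled DPF+ and 2 labelled DPF-, and the submitters' question was which genes differ in expression between the lines. The labels do not expand the abbreviation DPF, and they name no agent, allele or treatment in either line. The remaining 4 arrays, HG+ and HG-, come from hens of 1 line that differ in fertility and are used below only where they show how the line comparison differs. All samples are given as oocytes of the F1 stage, collected 24 h before ovulation from hens kept at 20 °C with 14 h of light and 10 h of dark. The DPF+ samples gave 10.5 and 9.1 µg of RNA and the DPF- samples 10 and 13.3 µg, and 20 µg of biotin-labelled RNA is given per Affymetrix chicken genome array. The replicates are described as biological, but nothing says how many birds stand behind an array, so that every p-value below measures the spread between these samples only.

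The laying hen carries a hierarchy of yolk-filled follicles, of which F1 is the largest and the next to ovulate. The granulosa cells around the F1 oocyte make progesterone, which takes part in the surge of luteinizing hormone that precedes ovulation. The oocyte itself holds its nucleus and most of its cytoplasm in a small disc on the yolk, and it resumes meiosis shortly before it is shed.

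Of the 38535 probe sets in the table, 11846 had a log2 value of at least 4 on at least 2 of the 4 DPF arrays and were tested, after the 96 control probe sets and 6 probe sets blank on these arrays were left out. They stand for 6756 genes with a single name, of which 0.888% lay higher and 0.799% lower at an unadjusted p under 0.05 in the fit described below. Between 11433 and 11700 probe sets of the whole table reached 4 on a DPF array, so the arrays detected similar numbers of probe sets. Arrays give no read depth, and the number of arrays limits the precision.

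The tissue label was set against cell type markers. Several granulosa markers lay well above the filter value of 4 on all DPF arrays. FOXL2, a transcription factor of ovarian somatic cells, read 11.19 and 11.02 on the DPF+ arrays, against 11.15 and 10.85 on the DPF- arrays. LHCGR, the receptor of luteinizing hormone, read 11.49 and 10.53 in DPF+ and 11.44 and 11.68 in DPF-. Of the oocyte markers, DAZL, an RNA-binding protein of germ cells, read 6.77 and 8.15 in DPF+ and 7.78 and 6.68 in DPF-. DDX4 lay at 2.50 and 2.50 in DPF+ and 2.50 and 2.51 in DPF-, GDF9 between 2.71 and 2.78 on the 4 arrays and BMP15 between 2.43 and 2.73, so these defining oocyte genes were not detected. Both kinds of marker were thus present in part, granulosa genes more completely: 19 of 26 granulosa genes on the array were tested, and 13 of 25 oocyte genes. None of the 8 red blood cell genes passed the filter. Of 18 leukocyte genes, 2 were tested. PTPRC lay between 2.52 and 2.53, but CD74 read 8.37 and 7.60 in DPF+ and 7.87 and 8.81 in DPF-. Of 20 theca and stroma genes, 5 were tested. CYP17A1, COL1A1 and DCN lay between 2.32 and 2.49, but VIM read 10.88 and 11.42 in DPF+ and 11.12 and 10.80 in DPF-. COL1A2, at 5.97 and 4.68 in DPF+ and 4.50 and 4.08 in DPF-, alone of the 5 lay higher without overlap (20%). None of the 5 lay lower, beside 11.2% higher and 8.79% lower of all genes. In such a mixed sample, fewer cells of a type and less RNA per cell cannot be told apart.

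The summed levels of the marker lists differed more between the arrays of a line than between the lines. The log2 of the summed oocyte list was 9.28 and 10.264 on the DPF+ arrays, against 9.921 and 9.194 on the DPF- arrays. The summed granulosa list ran the other way, at 14.82 and 13.82 in DPF+ and 14.153 and 14.773 in DPF-. In each line, therefore, 1 array stood higher in the summed oocyte list and the other in the summed granulosa list. Replicate 2 of DPF+ and replicate 1 of DPF- were the higher arrays for the oocyte list. The granulosa sum is carried by its highest genes, RLN3 among them, and single genes were divided. Of 19 tested granulosa genes, 8 were higher on DPF+ replicate 2 than on replicate 1, and 8 on DPF- replicate 1 than on replicate 2. The part of these array differences in the results below was not tested. A measure of RNA integrity also ran with the line: the 3′ minus 5′ log2 difference, averaged over the actin, GAPDH and EF1-alpha control probe sets, was 1.703 and 1.755 on the DPF+ arrays, against 1.445 and 1.245 on the DPF- arrays. The 4 HG arrays lay between 0.935 and 1.068 on the same scale. Its part in the results was not tested either.

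The replicates of DPF+ differed widely. Over the tested probe sets the SD of the difference between 2 arrays of a group was 0.758 in DPF+, against 0.456 in DPF-. The same SD was 0.269 in HG+ and 0.273 in HG-, and the difference between the DPF+ and DPF- means had an SD of 0.362. A difference between means of 2 arrays varies less than one between single arrays by construction. For independent arrays without any line effect, the replicate spread alone gives an SD of 0.442. Whether these arrays were independent is not known. The replicate differences of DPF+ and DPF- correlated at r = -0.535 over the probe sets. Probe sets vary together, so this correlation does not settle it. The place of 0.362 under 0.442 therefore does not decide whether the lines differ. The plot of absolute differences shows the same quantities by size. A difference of at least 1 on the log2 scale separated the 2 DPF+ arrays in 2269 probe sets (19.15%) and the 2 DPF- arrays in 418 (3.529%), while the line means differed by that much in 195 (1.646%).

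**Figure D1:**
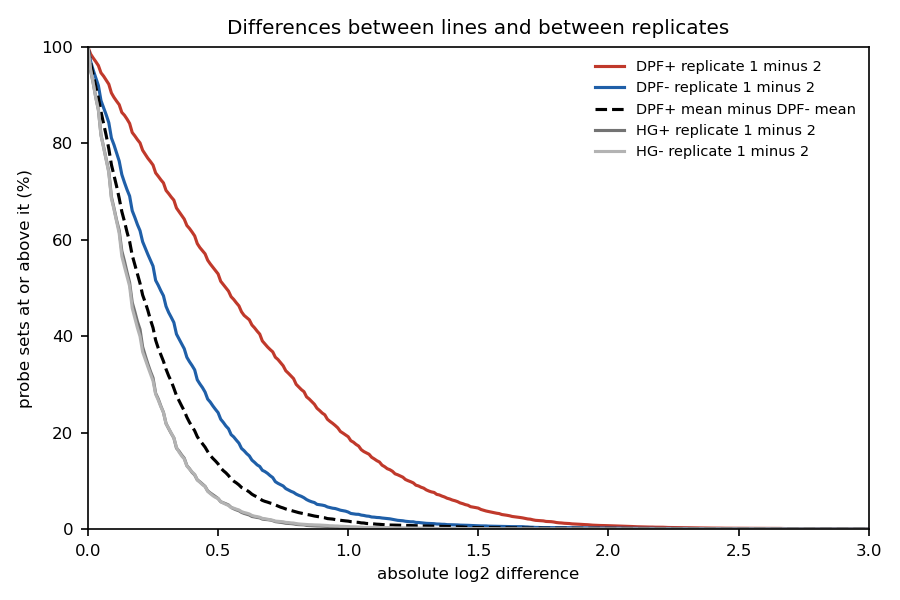
Share of the 11846 tested probe sets (y axis, percent) whose absolute log2 difference reaches the value on the x axis, for replicate 1 minus replicate 2 of DPF+, DPF-, HG+ and HG- (solid lines) and for the DPF+ mean minus the DPF- mean (dashed line). The DPF+ replicates lie farthest apart, with 19.15% of probe sets at a difference of 1 or more. The line difference is one of means and so varies less than single arrays by construction.

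Each DPF+ array was nearer to a DPF- array than to the other DPF+ array. DPF+ replicate 1 correlated at r = 0.975 with DPF- replicate 2 and at r = 0.918 with DPF+ replicate 2 over the 11846 probe sets. DPF+ replicate 2 in turn correlated at r = 0.957 with DPF- replicate 1. The 2 DPF- arrays correlated at r = 0.970 with each other. These correlations are across probe sets, which are not independent and share probe affinities, and they describe these arrays only. A gene of wide spread in both lines shows the same layout: RLN3, a relaxin-family hormone gene, read 12.73 and 10.06 in DPF+, against 9.68 and 12.65 in DPF-. RLN3 is on the granulosa list and so enters the granulosa sum given above. Its 4 values split by array and not by line, and the line difference was 0.23, with an unadjusted p of 0.849 in limma.

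The 10 genes of widest spread between the 2 DPF+ arrays were LOC107049264, LOC426093, PLTP, NR5A2, DSTN, RLN3, ETAA1, CNTN4, ALB and RGS16, with absolute differences from 4.06 down to 2.49 when values under 4 are set to 4. ALB, the serum albumin gene, read 9.28 and 6.75 in DPF+, against 7.97 and 11 in DPF-. PLTP, which transfers phospholipids between lipoproteins, read 8.83 and 6 in DPF+ and 7.12 and 8.62 in DPF-. In both, replicate 1 of DPF+ and replicate 2 of DPF- were the higher arrays. The widest spread between the DPF- arrays was found for LOC426093, ALB, RLN3, ADA, SLC12A2, IGFBP2, NADK, LOC428094, DPF3 and EPHX1L, and LOC426093, ALB and RLN3 stood in both sets. IGFBP2, a binding protein of insulin-like growth factors, read 7.43 and 5.97 in DPF+ and 5.73 and 8.13 in DPF-. No gene of these sets other than ETAA1 had DPF+ and DPF- values free of overlap.

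No probe set passed the 5% threshold in the line comparison (limma on the 4 arrays, Benjamini-Hochberg adjustment over 11846 probe sets), 0.0% in either direction, and the smallest adjusted p was 0.9997. At an unadjusted p under 0.05 there were 269 probe sets, 115 higher in DPF+ (0.971%) and 154 lower (1.3%). This is under the 592.3 that 5% of the tested probe sets would give by chance. The values of the 2 groups did not overlap in 1330 probe sets higher in DPF+ (11.2%) and 1352 lower (11.4%), and 22.6% showed no overlap in either direction. With 2 arrays in each group, a lack of overlap is frequent also between groups that do not differ, so these counts are no sign of a line difference. A line difference of at least 1 without overlap was found in 82 probe sets higher in DPF+ (0.692%) and 95 lower (0.802%). The count at an unadjusted p under 0.05 hung on single arrays: it was 1679 without DPF+ replicate 1, 529 without DPF+ replicate 2, 177 without DPF- replicate 1 and 114 without DPF- replicate 2. None of the genes below is therefore called changed, and their values describe these 4 arrays.

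The genes named first are those with the widest gap between the lines, 15 in each direction, where the gap is the lowest array of the higher group minus the highest array of the lower group and values under 4 are set to 4. A gap of at least 1 was reached by 12 probe sets higher in DPF+ (0.101%) and 18 lower (0.152%). Since the gap chose them, the lack of overlap in these genes is their selection and not a result. The list shares below also count members that the gap chose, such as CSNK1E, FBLN1, RFX3, VWC2, LY6E, TAPBP and BG8. Those shares are therefore not independent of this choice. At the border of the higher set, GLT1D1 had a gap of 0.88 and LOC424109, just outside, 0.84. In the lower set GCNT2 had a gap of 1.01 and APOH, just outside, 0.99. All 30 had an adjusted p of 0.9997 in limma.

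Among the genes of RNA handling, EXOSC1, a subunit of the cap of the RNA exosome that degrades and trims RNA, had the widest gap of the higher set. EXOSC1 read 5.57 and 7.08 on the DPF+ arrays, against 3.07 and 3.55 on the DPF- arrays. Both DPF- values lay under 4, and the log2 difference was 3.02 ± 0.54 (SE) as fitted or 2.33 when low values were set to 4. The 8 other exosome genes tested had log2 differences from -0.07 to 0.60. EXOSC10, the nuclear ribonuclease of the complex, read 7.07 and 8.60 in DPF+, against 7.42 and 7.06 in DPF-, so its arrays overlapped. G3BP2, an RNA-binding protein of stress granules, read 7.79 and 7.61 in DPF+ and 6.66 and 6.65 in DPF-, a log2 difference of 1.05 ± 0.30 (SE) in which both replicate pairs lay close together.

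CSNK1E encodes casein kinase 1 epsilon, which phosphorylates clock proteins and components of WNT signalling. It read 5.20 and 5.94 in DPF+, against 3.05 and 3.69 in DPF-. The DPF- arrays lay under 4, with a log2 difference of 2.20 ± 0.40 (SE). Its paralogue CSNK1D read 6.88 and 6.57 in DPF+ and 6.54 and 6.64 in DPF-, and so overlapped. Of the other clock genes tested, CLOCK, which heads the transcriptional loop with ARNTL, read 6.90 and 6.97 in DPF+ and 6.82 and 6.82 in DPF-, a small difference of 0.12. CRY1, a repressor of that loop, read 9.96 and 10.34 in DPF+, against 10.04 and 9.62 in DPF-. In the clock list, 3 of 13 genes lay higher without overlap (23.1%) and 1 lower (7.69%), beside 11.2% and 8.79% of all 6756 genes.

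MME, the membrane peptidase neprilysin, and RAMP3, which modifies the calcitonin-receptor-like receptor into an adrenomedullin receptor, act in peptide signalling at the cell surface. MME read 6.07 and 6.20 in DPF+, against 4.84 and 4.63 in DPF-. RAMP3 read 7.01 and 7.15 in DPF+, against 5.90 and 5.65 in DPF-. Both had replicates within 0.3 of each other in each line, and the log2 differences were 1.40 ± 0.31 and 1.31 ± 0.31 (SE). The receptor partner CALCRL lay between 2.40 and 2.41 on the 4 arrays and was not detected. ADM, the ligand adrenomedullin, read 7.60 and 8.11 in DPF+, against 9.30 and 8.12 in DPF-, with groups that just missed overlapping. The next gene to MME in the reference order, the orphan receptor gene GPR149, read 5.28 and 6.61 in DPF+ and 4.98 and 3.55 in DPF-, higher in DPF+ without overlap.

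CAT encodes catalase, which breaks down hydrogen peroxide. CAT read 7.19 and 6.81 in DPF+, against 5.40 and 5.80 in DPF-. Its other probe set read 7.67 and 7.54 in DPF+ and 6.69 and 7.29 in DPF-, and so also lay higher without overlap, with log2 differences of 1.40 and 0.62 on the 2 probe sets. Of 9 other genes of antioxidant enzymes tested beside it, the superoxide dismutases SOD1 and SOD2 among them, 3 lay lower without overlap and none higher. The differences ran from -0.63 to 0.13. GPX1, a glutathione peroxidase, read 9.32 and 8.97 in DPF+, against 9.74 and 9.81 in DPF-. GPX3 read 10.17 and 9.53 in DPF+, against 10.49 and 10.24 in DPF-. PRDX6, a peroxiredoxin, read 9.08 and 8.65 in DPF+, against 9.21 and 9.21 in DPF-. In the antioxidant list of 31 tested genes, CAT alone lay higher without overlap (3.23%) and 7 lay lower (22.6%), beside 11.2% and 8.79% of all genes, and the list median was -0.08, beside 0.05 over all genes, and ran from -0.14 to -0.03 with 1 array left out. Besides those 3 enzymes, the lower ones were NQO1, MSRB3, GSS and TXN2.

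The growth and cycle genes of the higher set were CCNG2, FAM83D and PTMA. CCNG2, an atypical cyclin tied to cell cycle arrest, read 9.07 and 8.71 in DPF+, against 7.52 and 7.78 in DPF-. FAM83D, a protein of the mitotic spindle, read 5.70 and 5.69 in DPF+, against 4.78 and 4.03 in DPF-. PTMA, the acidic nuclear protein prothymosin alpha, read 8.58 and 8.63 in DPF+, against 7.38 and 7.38 in DPF-. The PTMA replicates nearly coincided, but its probe sets disagreed: the other 2 gave differences of 1.09 and 0.11. CCNG2 also had a second probe set with a smaller difference, 0.18.

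Of the transcription regulators, LMO2, a LIM-domain cofactor of blood formation, read 6.48 and 6.96 in DPF+, against 5.31 and 5.56 in DPF-. NFIB, a nuclear factor I protein, read 5.76 and 5.55 in DPF+, against 4.54 and 4.64 in DPF-. The other 2 NFIB probe sets each gave a difference of -0.005 and overlapped, so NFIB differed on 1 of 3 probe sets. TRAPPC10, a subunit of a vesicle-tethering complex, read 9.04 and 8.65 in DPF+ and 7.54 and 7.52 in DPF-, and its second probe set gave a similar difference of 1.42. The 4 other TRAPP genes tested lay on the other side of 0, with differences from -0.44 to -0.10. NSFL1C, a cofactor of the p97 ATPase, read 5.16 and 5.15 in DPF+, against 4.24 and 4.07 in DPF-, while its other 2 probe sets gave smaller differences of 0.77 and 0.03. FAM132A, a secreted protein of the C1q and TNF family, read 6.02 and 6.33 in DPF+, against 4.86 and 4.14 in DPF-. GLT1D1, a protein with a glycosyltransferase domain, read 5.57 and 5.60 in DPF+ and 4.69 and 4.68 in DPF-. These 3 completed the higher set, at log2 differences of 1.00, 1.68 and 0.90.

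**Figure D2:**
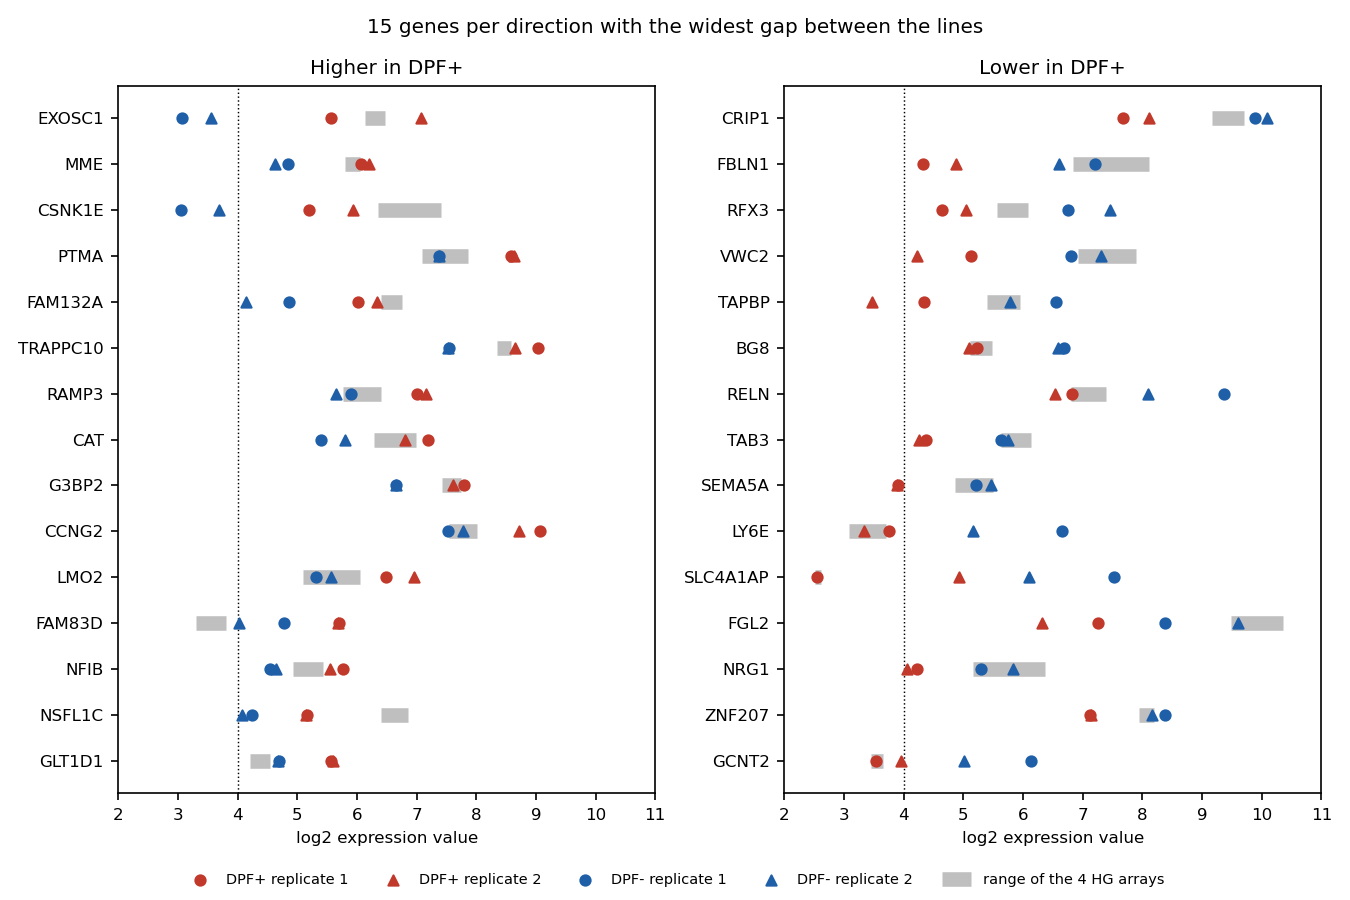
Log2 expression value (x axis) on each DPF array of the 15 genes per direction with the widest gap between the lines, with DPF+ in red and DPF- in blue, circles for replicate 1 and triangles for replicate 2, and grey bars for the range of the 4 HG arrays. The dotted line marks the filter value of 4. The lines do not overlap because the gap chose the genes, and both DPF- values of EXOSC1 and CSNK1E and both DPF+ values of SEMA5A, LY6E and GCNT2 lie under 4.

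The lower set opened with CRIP1, a small cysteine-rich LIM-domain protein. CRIP1 read 7.67 and 8.11 in DPF+, against 9.89 and 10.09 in DPF-. It had the widest gap of either direction, 1.78, and the smallest unadjusted p of the 30, 4.4e-04, at a log2 difference of -2.10 ± 0.31 (SE). Its values were well above 4 on all arrays. The neighbouring gene CRIP2 gave a difference of -0.39, also without overlap.

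Several secreted and matrix proteins had lower values in DPF+. FBLN1, the extracellular matrix protein fibulin 1, read 4.33 and 4.88 in DPF+, against 7.21 and 6.60 in DPF-. Its second probe set read 2.71 and 3.24 in DPF+ and 5.18 and 4.27 in DPF-. That probe set passed the filter only through DPF-, which fixes its direction. The differences were -2.30 and -1.75. With values under 4 set to 4, the gap of the second probe set was -0.27. In the matrix list of 20 tested genes, 4 lay lower without overlap (20%) and none higher, beside 8.79% and 11.2% of all genes. The other 3 were type IV collagen genes, which form the network of basement membranes. COL4A3 read 5.82 and 4.78 in DPF+, against 6.41 and 6.46 in DPF-. COL4A4 read 11.21 and 10.08 in DPF+, against 11.58 and 11.48 in DPF-, and COL4A6 5.50 and 4.35 in DPF+, against 5.95 and 5.85 in DPF-. In all 3, DPF+ replicate 2 was the lowest array and DPF+ replicate 1 lay nearer to DPF-. The median of the matrix list was -0.04, beside 0.05 over all genes, and -0.48 without DPF+ replicate 1.

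VWC2, the secreted protein brorin that binds bone morphogenetic proteins and blocks them, read 5.12 and 4.22 in DPF+, against 6.80 and 7.31 in DPF-. The difference was -2.39 ± 0.42 (SE). ID3, an inhibitor of DNA binding and a target of that pathway, read 7.38 and 7.85 in DPF+, against 6.58 and 6.47 in DPF-, with a difference of 1.09 ± 0.33 (SE). Among the 3 other ID genes, ID1 read 10.35 and 10.44 in DPF+ and 10.26 and 10.34 in DPF-, and ID2 and ID4 overlapped. In the list of TGF-beta and BMP signalling, 6 of 32 tested genes lay higher without overlap (18.8%) and 3 lower (9.38%), beside 11.2% and 8.79%. The higher ones included FST and NOG, secreted antagonists like VWC2, so antagonists stood on both sides. The list median was 0.11 and became -0.01 without DPF+ replicate 2.

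RELN encodes reelin, a large secreted protein that binds the receptors VLDLR and LRP8. RELN read 6.82 and 6.54 in DPF+, against 9.37 and 8.09 in DPF-. The DPF- arrays differed by more than 1 from each other, and the difference between lines was -2.05 ± 0.47 (SE). VLDLR, which in the hen is also the oocyte's receptor for yolk precursors, read 11.66 and 10.90 in DPF+ and 11.50 and 11.38 in DPF-, with overlap. LRP8 lay between 2.66 and 2.70 and the adaptor DAB1 between 2.73 and 2.78, so neither was detected.

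SEMA5A, a transmembrane semaphorin with thrombospondin repeats, read 3.90 and 3.89 in DPF+, against 5.22 and 5.46 in DPF-. Its probe set of highest level read 9.27 and 8.71 in DPF+, against 9.54 and 9.61 in DPF-. All 4 of its probe sets lay lower without overlap, at differences from -1.45 to -0.59. Some of them had both DPF+ values under 4 and passed the filter only through DPF-, which fixes their lack of overlap. NRG1, a ligand of the EGF family, read 4.23 and 4.06 in DPF+, against 5.30 and 5.84 in DPF-. Its receptors ERBB2 and ERBB4 did not pass the filter, with ERBB2 between 2.24 and 2.25 on the 4 arrays. FGL2, a fibrinogen-like protein, read 7.25 and 6.32 in DPF+, against 8.38 and 9.61 in DPF-, so both lines were spread by about 1.

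The regulators of the lower set were RFX3, TAB3 and ZNF207. RFX3, a transcription factor of cilium formation, read 4.65 and 5.04 in DPF+, against 6.75 and 7.45 in DPF-. TAB3, an adaptor of the kinase TAK1, read 4.38 and 4.26 in DPF+, against 5.63 and 5.75 in DPF-, and its second probe set agreed in direction at -0.86. ZNF207, a zinc finger protein of the kinetochore, read 7.13 and 7.14 in DPF+, against 8.38 and 8.17 in DPF-. Its 4 other probe sets gave smaller differences, from -0.61 to 0.06. In the list of homeobox and developmental transcription factors, 4 of 16 genes lay lower without overlap (25%) and none higher, beside 8.79% and 11.2% of all genes. HOXA7, a patterning gene, read 6.35 and 6.52 in DPF+, against 7.12 and 7.42 in DPF-. GATA4, a transcription factor of granulosa cells, read 4.24 and 4.66 in DPF+, against 5.04 and 5.37 in DPF-. Both lay lower by less than 1, and the fourth gene, HOXA6, missed overlapping by 0.01 on its probe set of highest level. On another it read 3.45 and 3 in DPF+, against 4.76 and 4.60 in DPF-. That other probe set passed the filter only through DPF-, which fixes its lack of overlap. The list median was -0.10 and -0.29 without DPF+ replicate 1.

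SLC4A1AP, the nuclear protein kanadaptin, had the largest difference of the lower set and the least stable one. SLC4A1AP read 2.55 and 4.93 in DPF+, against 7.52 and 6.10 in DPF-. The 2 DPF+ arrays differed by more than 2, the SE of the difference of -3.07 was 0.84, and its other probe sets overlapped between the lines at -0.23 and -0.05. GCNT2, which builds branched poly-N-acetyllactosamine chains, read 3.54 and 3.96 in DPF+, against 6.13 and 5.01 in DPF-. Its second probe set lay higher in DPF+, at 7.67 and 7.33, against 7.01 and 7.08 in DPF-, so the direction depends on the probe set.

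TAPBP and BG8, both in the lower set, are genes of the chicken major histocompatibility complex (MHC). TAPBP encodes tapasin, which loads peptides onto class I molecules, and BG8 a protein of the BG family, which is related to butyrophilins. TAPBP read 4.34 and 3.47 in DPF+, against 6.56 and 5.78 in DPF-. BG8 read 5.23 and 5.09 in DPF+, against 6.69 and 6.58 in DPF-. BF2, a class I heavy chain, read 4.78 and 4.42 in DPF+, against 5.72 and 5.62 in DPF-. These 3 lay lower without overlap, with differences of -2.27, -1.48 and -1.07. The class I light chain B2M, which lies outside the complex, read 10.32 and 9.45 in DPF+ and 10.18 and 10.12 in DPF-, with overlap. Among the 12 tested genes of the antigen presentation list, those 3 lay lower (25%) and CTSB, the lysosomal protease cathepsin B, lay higher (8.33%), beside 8.79% and 11.2% of all genes. The gap chose TAPBP and BG8, so their part of this share is selection. CTSB read 12.36 and 12.26 in DPF+, against 11.72 and 11.58 in DPF-. The list median was -0.26; leaving out DPF+ replicate 1 gave -0.69, and leaving out DPF- replicate 2 gave 0.05.

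The MHC genes adjoin each other, and the stretch was looked at after their values had been seen. In the gene order of the reference assembly (GCF_016699485.2, bGalGal1.mat.broiler.GRCg7b), the 13 tested genes of chromosome 16, which carries the complex, were ARHGAP33L2, LOC107049794, POLR2I, MHCY10, MHCY4, BG8, ZNF692, RACK1, BTN1, TAPBP, BRD2, BF2 and C4. Of these, LOC107049794, BG8, ZNF692, RACK1, TAPBP and BF2 lay lower in DPF+ without overlap, 6 of 13 (46.2%) beside 8.79% of all genes, and none lay higher. BG8 and TAPBP are among the 6 because the gap chose them. MHCY10 and MHCY4, genes of the MHC-Y region, overlapped, at differences of 0.48 and -0.33. LOC107049794 read 2.54 and 3.10 in DPF+, against 4.21 and 4.12 in DPF-, near or under the filter value on all arrays. It passed the filter only through its DPF- values, which fixes its lack of overlap. The share of 46.2% is therefore independent neither of the gap nor of the filter. ZNF692, a zinc finger gene, read 3.46 and 4.20 in DPF+, against 4.87 and 4.77 in DPF-. RACK1, a ribosome-bound scaffold protein, read 10.52 and 10.54 in DPF+, against 10.65 and 10.92 in DPF-, a small difference of -0.26. BRD2, a bromodomain protein, read 4.94 and 5.82 in DPF+ and 5.05 and 5.84 in DPF-. BF and BG genes have near-identical copies and differ in sequence between birds, so that the values of BF2 and BG8 are uncertain as measures of 1 gene. For the 29 named genes with a place in the assembly, the 2 tested genes on either side gave 116 pairs. Of these, 22 (19%) lay on the same side without overlap and 8 (6.9%) on the opposite side, beside 11.2% higher and 8.79% lower of all genes. The 22 include RACK1, ZNF692 and BF2 of this stretch, with RACK1 counted for both BG8 and TAPBP. Several gaps were small, such as 0.01 for IGFBP3 on the same side and -0.03 for DHX35 on the opposite side. A likeness of neighbours was not tested.

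**Figure D3:**
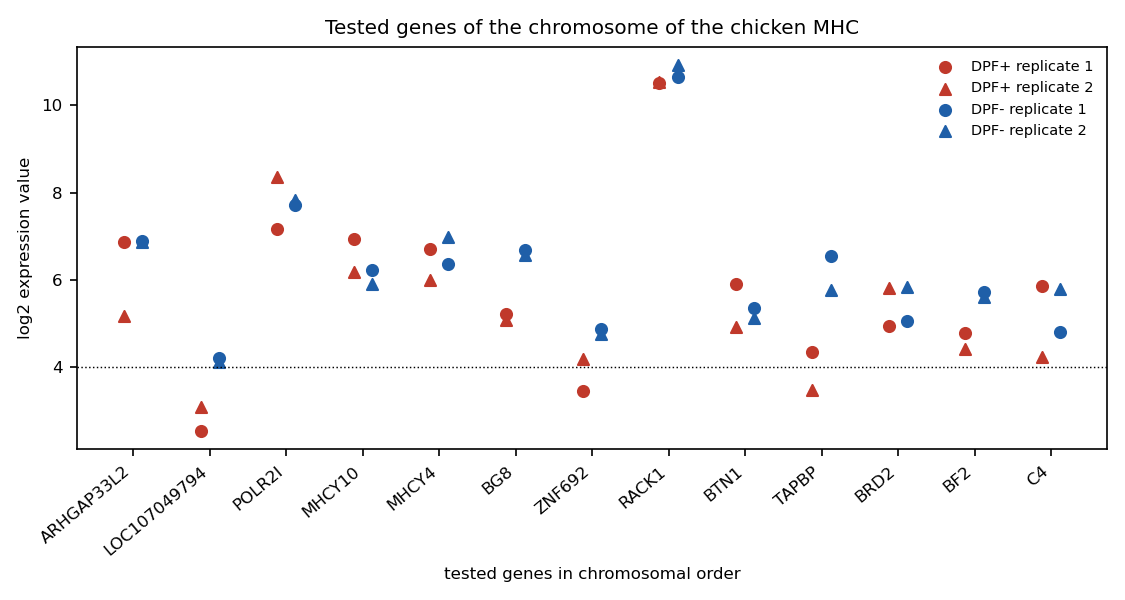
Log2 expression value (y axis) of the 13 tested genes of the chromosome of the chicken MHC (x axis, in chromosomal order) on each DPF array, with DPF+ in red on the left and DPF- in blue on the right of each position, circles for replicate 1 and triangles for replicate 2. LOC107049794, BG8, ZNF692, RACK1, TAPBP and BF2 lie lower in DPF+ without overlap, the other 7 genes overlap, and the dotted line marks the filter value of 4.

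LY6E, a membrane-anchored protein induced by interferon, completed the lower set. LY6E read 3.76 and 3.34 in DPF+, against 6.65 and 5.17 in DPF-. Both DPF+ values lay under 4, and the difference was -2.36 ± 0.52 (SE). In the interferon response list, 5 of 17 tested genes lay lower without overlap (29.4%) and 2 higher (11.8%), beside 8.79% and 11.2% of all genes. PARP14 read 5.88 and 5.64 in DPF+, against 6.68 and 6.30 in DPF-. PARP9, which acts with DTX3L in the interferon response, read 4.01 and 3.46 in DPF+, against 4.60 and 4.51 in DPF-, whereas DTX3L lay higher at 5.89 and 6.77 in DPF+, against 5.25 and 5.80 in DPF-. Partners of 1 complex thus stood on opposite sides. IRF7, a transcription factor of the interferon response, read 4.18 and 3.99 in DPF+, against 5.19 and 4.51 in DPF-. The list median was -0.09, and -0.39 without DPF+ replicate 2.

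A further view asked which genes with at least 3 probe sets had none that overlapped. SEMA5A, TTLL12, BLVRA, ORMDL1, C16orf62, SEL1L3, PDE5A, CLK3, ELOVL1, EPS8, CYB5R1, U2SURP, EPB41L3 and SCFD1 lay lower in this way, and TMEM128, ACSL4, TTC4 and ZBTB10 higher. Of genes with 3 probe sets, 4 of 476 lay higher (0.84%) and 11 lower (2.31%), and of those with more, 0 and 3 of 124. Probe sets of 1 gene often share bases and are not independent measurements. All probe sets of ORMDL1, and some of SEMA5A, U2SURP and TMEM128, had 1 line wholly under 4. They passed the filter only through the other line, which fixes their lack of overlap. These shares are therefore not independent of the filter. ZBTB10, a zinc finger repressor, read 8.70 and 9.04 in DPF+ and 7.72 and 8.13 in DPF- on the probe set with its largest difference. BLVRA, which reduces biliverdin to bilirubin, had differences from -0.88 to -0.74 on its 3 probe sets.

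Few probe sets were above the filter value in 1 line only. Both DPF+ arrays reached 4 and both DPF- arrays stayed under it in 93 probe sets (0.785%), and the reverse held in 103 (0.869%). Most tested probe sets, 10422 (88%), reached 4 on all 4 arrays. With a level of 5 asked of the higher group, single probe sets of CSNK1E and EXOSC1 were left for DPF+. Those left for DPF- were of GCNT2, LY6E and SEMA5A. These genes had already been chosen by the gap. Other probe sets of SEMA5A and GCNT2 were above 4 in both lines, at 9.27 and 8.71 for SEMA5A and 7.67 and 7.33 for GCNT2 in DPF+. Probe sets with 1 line wholly under 4 passed the filter only through the line in which they were high. Their lack of overlap follows from the filter, also for POLA2, PDE8A, CASP9, CCNJ, CCDC43 and a probe set of HOXA6, named below.

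The gene groups of the ovary followed the arrays more than the lines. In the list of M phase and kinetochore genes, 60 of 64 were higher on DPF+ replicate 2 than on replicate 1, and 60 were higher on DPF- replicate 1 than on replicate 2. Over all tested probe sets, 54.8% were higher on DPF+ replicate 2 and 55.1% on DPF- replicate 1 in the same sense. The median differences of the list were 1.03 and 0.60, beside 0.10 and 0.05 over all probe sets. CCNB1, a cyclin of the switch from G2 to M phase, read 12.80 and 13.84 in DPF+, against 13.67 and 13.20 in DPF-. CDK1, its kinase, read 8.66 and 10.04 in DPF+ and 9.61 and 8.98 in DPF-. For both, the spread within DPF+ exceeded 1 and the line difference was near 0. The list had 4 genes higher without overlap (6.25%) and 1 lower (1.56%), under the 11.2% and 8.79% of all genes. CENPF, a kinetochore protein, read 5.62 and 6.82 in DPF+, against 5.00 and 4.94 in DPF-. The list median between lines was 0.16, at 0.69 without DPF+ replicate 1 and -0.33 without DPF+ replicate 2, so that its sign hung on which DPF+ array was kept.

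DNA replication and repair genes had the same layout. Of 43 replication genes, 42 were higher on DPF+ replicate 2 than on replicate 1 and 39 on DPF- replicate 1 than on replicate 2, against the same 54.8% and 55.1% overall. The line median was 0.15, at 0.69 without DPF+ replicate 1 and -0.29 without DPF+ replicate 2. In this list 4 genes lay higher without overlap (9.3%) and 1 lower (2.33%), beside 11.2% and 8.79% of all genes. POLA2, a subunit of DNA polymerase alpha, read 4.53 and 4.57 in DPF+, against 3.29 and 3.61 in DPF-. POLA1, the catalytic subunit of the same enzyme, read 4.50 and 4.63 in DPF+, against 4.93 and 5.01 in DPF-, on the other side. For 43 repair and checkpoint genes the line median was 0.19, at 0.54 without DPF+ replicate 1 and -0.11 without DPF+ replicate 2, with 3 higher (6.98%) and none lower without overlap.

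The oocyte list showed the same order of arrays, with 11 of 13 genes higher on DPF+ replicate 2 than on replicate 1 and 12 on DPF- replicate 1 than on replicate 2, beside 54.8% and 55.1% of all probe sets. BTG4, which in mice clears maternal transcripts, read 6.70 and 8.50 in DPF+, against 7.88 and 6.96 in DPF-. WEE2, an oocyte kinase that in mice holds meiotic arrest, read 3.68 and 5.33 in DPF+ and 5.62 and 3.91 in DPF-. GTSF1, a cofactor of the piRNA pathway, had close replicates without overlap of the lines, at 6.72 and 6.71 in DPF+, against 6.23 and 6.21 in DPF-. The line difference was 0.495, with an unadjusted p of 0.149 in limma. The HG+ minus HG- difference was larger, at 1.10 in the same direction. The oocyte line median was 0.23, at 0.57 without DPF+ replicate 1 and -0.27 without DPF+ replicate 2, and 2 genes lay higher without overlap (15.4%) and none lower, beside 11.2% and 8.79% of all genes.

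**Figure D4:**
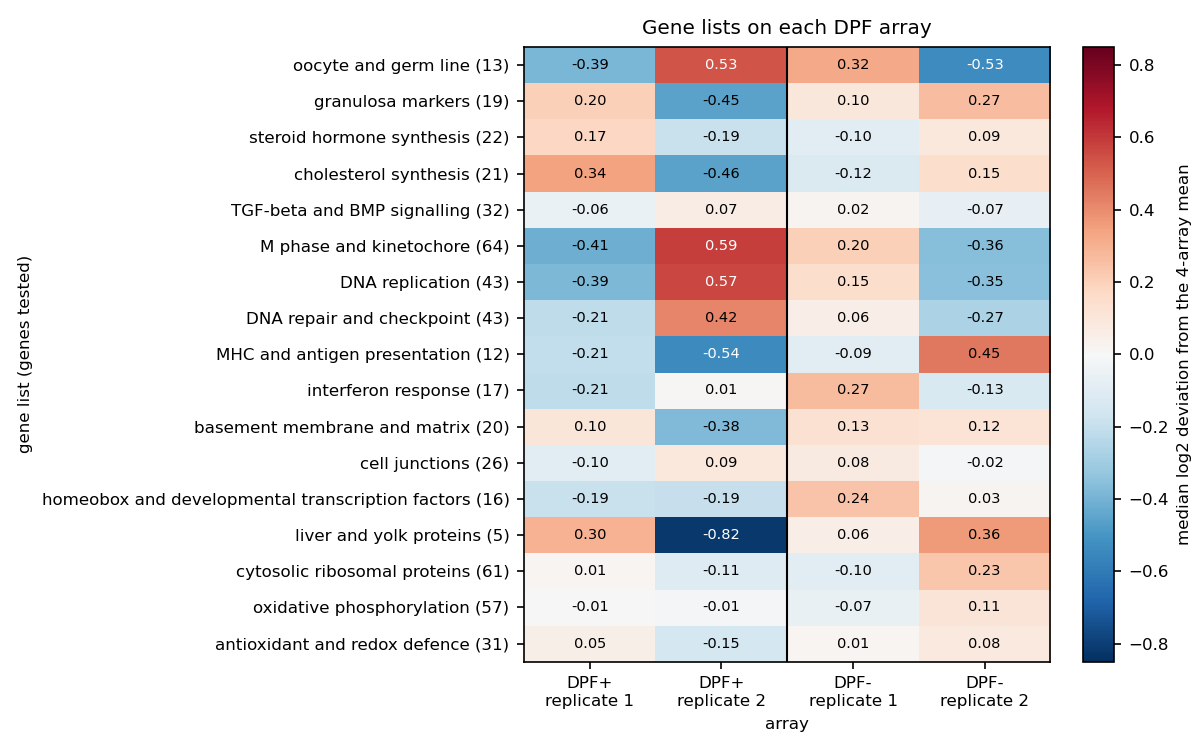
Median log2 deviation from the 4-array mean (colour and printed value) of 17 gene lists (rows, tested genes in brackets) on the 4 DPF arrays (columns, DPF+ left of DPF-). Replicate 2 of DPF+ and replicate 1 of DPF- are high for oocyte, M phase and replication genes and DPF+ replicate 2 is low for granulosa and cholesterol genes, so that columns of 1 line are not alike.

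Cholesterol synthesis ran against these lists, and steroid synthesis was more mixed. Of 21 cholesterol genes, 3 were higher on DPF+ replicate 2 than on replicate 1 (14.3%), and 3 on DPF- replicate 1 than on replicate 2 (14.3%). Of 22 steroid genes these were 8 (36.4%) and 9 (40.9%), beside 54.8% and 55.1% of all probe sets. CYP11A1, the enzyme that opens steroid synthesis by cutting the cholesterol side chain, read 11.32 and 9.91 in DPF+, against 10.91 and 11.59 in DPF-. STAR, which carries cholesterol into mitochondria, read 9.01 and 7.91 in DPF+, against 8.39 and 9.07 in DPF-. HSD3B1, which completes progesterone, read 12.38 and 11.66 in DPF+, against 12 and 12.41 in DPF-. In all 3 the lines overlapped and DPF+ replicate 2 was the lowest array. Of the 22 tested steroid genes, 1 lay higher without overlap (4.55%), FDX1, the ferredoxin that passes electrons to CYP11A1, and none lower. The steroid median was 0.03, with a mean of -0.01 on the other side of 0, and -0.26 without DPF+ replicate 1. For 21 cholesterol genes the median was -0.15, at -0.55 without DPF+ replicate 1 and 0.34 without DPF+ replicate 2, with 2 higher (9.52%) and 1 lower without overlap (4.76%). Granulosa markers had a line median of -0.02, at -0.54 without DPF+ replicate 1 and 0.18 without DPF+ replicate 2, and 1 of 19 lay higher and 2 lower without overlap (5.26% and 10.5%). All these shares stand beside 11.2% higher and 8.79% lower of all genes.

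Liver and yolk proteins had the lowest line median of the lists, -0.76 over 5 tested genes, all 5 on the lower side. APOH, an apolipoprotein that binds phospholipids, read 6.10 and 5.91 in DPF+, against 7.81 and 7.09 in DPF-. It was the only one of the 5 without overlap (20% lower, none higher), beside 8.79% lower and 11.2% higher of all genes. The list median stood at -1.23 when DPF+ replicate 1 was left out and at -0.21 when replicate 2 was, and the vitellogenin genes VTG1, VTG2 and VTG3 lay between 2.49 and 2.77. The list rested on few genes: of its best-known members ALB, described above, was detected and the vitellogenins were not.

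Housekeeping groups and cell junctions had medians under that of all genes, 0.05. Differences were negative in 47 and positive in 14 of the cytosolic ribosomal genes, and in 37 and 18 of those of oxidative phosphorylation. In the junction list these were 14 and 12, beside 2889 negative and 3830 positive of all genes. Cytosolic ribosomal proteins had a median of -0.12 over 61 genes, with 1 higher and 1 lower without overlap (1.64% each), and leaving out DPF- replicate 1 gave a median of -0.29, leaving out DPF- replicate 2 one of 0.06. Oxidative phosphorylation had -0.06 over 57 genes, with 3 higher (5.26%) and 6 lower (10.5%), and cell junctions -0.06 over 26 genes, with none higher and 5 lower (19.2%), beside 11.2% higher and 8.79% lower of all genes. The medians of both ran across 0 with 1 array left out, from -0.15 to 0.04 and from -0.12 to 0.07. The junction genes were CTNNA2, CLDN11, MAGI2, PRKCI and PARD3, with differences from -0.74 to -0.17. The 20 other lists with at least 5 tested genes had medians from -0.22, for yolk uptake and lipid carriers, to 0.28, for immediate early genes. In that last list 4 of 17 genes lay higher without overlap (23.5%) and 1 lower (5.88%), beside the same 11.2% and 8.79%. In it ZFP36L1, an mRNA decay factor, read 9.65 and 9.55 in DPF+, against 9.42 and 8.19 in DPF-.

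Among the remaining lists, signalling genes gave a few members free of overlap, and the shares below stand beside 11.2% higher and 8.79% lower of all genes. DKK3, a secreted protein of the Dickkopf family, read 10.45 and 8.08 in DPF+, against 10.86 and 11.77 in DPF-. FZD8, a WNT receptor, read 5.11 and 4.49 in DPF+, against 5.48 and 6.33 in DPF-. In the WNT list 5 of 21 lay lower (23.8%) and 2 higher (9.52%). PDE8A, which degrades cyclic AMP, read 3.97 and 3.75 in DPF+, against 4.70 and 4.91 in DPF-, and in the cyclic AMP list 5 of 19 lay higher (26.3%) and 1 lower (5.26%). Of 27 apoptosis genes 8 lay higher (29.6%) and 5 lower (18.5%). Their differences were positive in 14 and negative in 13, with a median of 0.045, equal to that of all genes. APAF1, the scaffold of the apoptosome, read 5.85 and 6.48 in DPF+, against 5.56 and 5.26 in DPF-. CASP9, the protease it activates, read 4.05 and 4.15 in DPF+, against 3.66 and 3.23 in DPF-. The CASP9 difference was 0.66, and 0.10 when values under 4 were set to 4. BIRC2, an inhibitor of apoptosis, read 6.12 and 6.05 in DPF+, against 6.54 and 6.74 in DPF-. LDHA, lactate dehydrogenase A, read 4.69 and 5.05 in DPF+, against 5.70 and 5.98 in DPF-, as the 1 glycolytic gene of 22 without overlap (4.55%). None of these differences passed the test.

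The difference between the line contrast and the HG contrast was tested on all 8 arrays. No probe set passed 5% (0.0%), with a smallest adjusted p of 0.8694 and 339 probe sets at an unadjusted p under 0.05 (limma, Benjamini-Hochberg adjustment). The 5 genes with the smallest p in each direction were CSNK1E, MME, CCDC43, CCNJ and RAMP3 and, on the lower side, SEMA5A, RFX3, CRIP1, AGA and HOXA6. For CSNK1E the line difference was 2.20 and the HG+ minus HG- difference -0.73, so the contrasts had opposite signs. For SEMA5A they were -1.45 and 0.47. AGA, a lysosomal amidase, read 7.73 and 8.11 in DPF+, against 8.29 and 9.06 in DPF-, and 7.65 and 7.28 in HG+, against 6.12 and 5.32 in HG-. CCNJ, a cyclin, read 4.77 and 4.72 in DPF+, against 3.51 and 3.47 in DPF-, at a difference of -0.14 between HG+ and HG-.

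**Figure D5:**
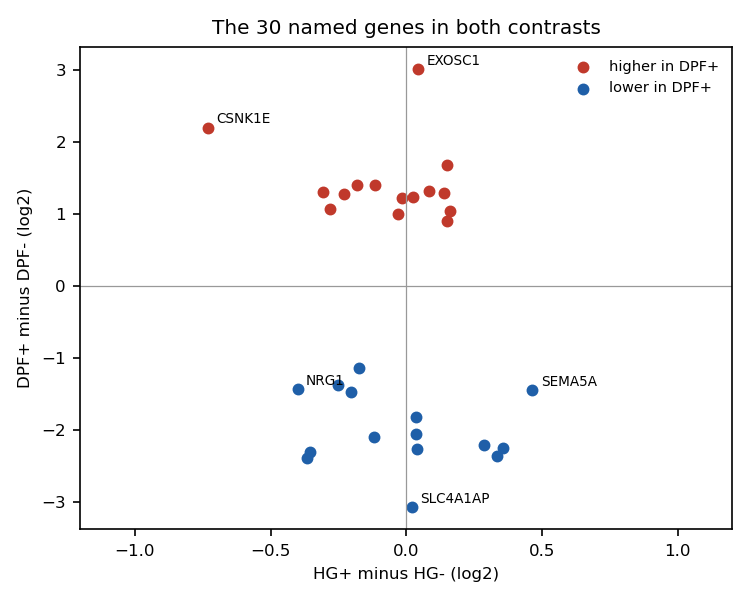
Log2 difference of DPF+ minus DPF- (y axis) against HG+ minus HG- (x axis) for the 30 genes with the widest gaps, 15 higher in DPF+ (red) and 15 lower (blue). The HG differences lie between -0.73 and 0.47, and 7 of the 15 genes in each direction have the same sign in both contrasts.

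Since the gap between the lines chose the 30 genes, smaller differences between HG+ and HG- follow from that choice, and their HG values are given as a description. The median absolute HG difference was 0.15 for the higher set and 0.25 for the lower set, and 7 of 15 genes in each had the same sign as the line difference. The HG arrays also place the DPF values, with the limit that the DPF and HG arrays may have been normalized apart. PTMA, RAMP3, CCNG2 and LMO2 had both DPF+ arrays above all HG arrays while DPF- did not lie wholly outside their range. EXOSC1, CAT and G3BP2 had both DPF- arrays below all HG arrays while DPF+ did not lie outside. MME, TRAPPC10 and NFIB had the lines on either side of the HG range, CSNK1E, FAM132A and NSFL1C had both lines below it, and FAM83D and GLT1D1 both above it. For MME the lower DPF+ value, 6.07, barely passed the highest HG value, 6.06. The second TRAPPC10 probe set read 9.61 and 9.04 in DPF+, not wholly above its HG range of 8.80 to 9.11. Among the lower genes, FBLN1, VWC2, TAPBP, TAB3, SEMA5A, FGL2, NRG1 and ZNF207 had both DPF+ arrays below all HG arrays, and BG8, RELN, LY6E, SLC4A1AP and GCNT2 had both DPF- arrays above them, and CRIP1 and RFX3 had the lines on either side. Which line lay outside the HG range thus varied from gene to gene: EXOSC1 read between 6.13 and 6.47 on the HG arrays, between the DPF+ values, and LY6E between 3.08 and 3.71, also close to DPF+, whereas FBLN1 lay between 6.83 and 8.11, close to DPF-.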

How the data were processed

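The deposited table holds log2 expression values per probe set, made by the authors with GCRMA, per the submitters' processing notes, a method that corrects background, normalizes between arrays and summarizes the probes of a set. The sources used here give no version, nor say whether DPF and HG arrays were normalized in 1 run. Exactly the same 6 probe sets are blank on all DPF arrays and 2 others on all HG arrays. Gene names came from the platform annotation, updated by gene identifier through the reference gene table (26863 probe sets of the array). Probe sets with a value of at least 4 on at least 2 of the 4 DPF arrays were fitted with limma 3.58.1 in R 4.3.3 (lmFit, eBayes with an intensity trend, 2 residual and 4.227 prior degrees of freedom), two-sided, with Benjamini-Hochberg adjustment at 5%. The HG arrays entered only the fit of the difference between contrasts, since their replicates vary less. Each gene in a list is represented by its probe set of highest mean. Genes were named by the 15 widest gaps per direction, by up to 3 list members with a gap of at least 0.3, by the widest replicate spread, as markers, and by the smallest p of the difference between contrasts. Partners of named genes, further list members, neighbours and the probe set view were chosen after values were seen. The members and lists were chosen with earlier results of these data known. Alternatives covered filters, normalization, variance models, covariates and leaving out each array. No sequence is given.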

Additional observations from a re-analysis of the deposited data

How the results depend on the processing

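The count of calls in the line comparison, 0 in the fit used, stayed at 0 under stricter and 8-array filters, median centring, quantile normalization, values under 4 set to 4, no trend, robust eBayes, array weights and the 4-group fit. Without a filter 6 probe sets were called higher, all under 2 with replicates identical to the last digit and a difference of 0.01, and without moderation 1 was, XPNPEP3, whose replicates were also identical. With the RNA amount as a covariate 6 were called higher and 10 lower, and without DPF- replicate 2, 2 higher and 2 lower (range over single arrays left out 0 to 2 in each direction); these fits leave 1 residual degree of freedom. With the replicate block 4 were called higher and 5 lower, with 153 at an unadjusted p under 0.05. No pairing of the samples by replicate number is known. The replicate differences of DPF+ and DPF- correlate at r = -0.535 over the probe sets. The crossed pairing, chosen after seeing the data, called 5 higher and 17 lower, with 783 at an unadjusted p under 0.05. That count, 269 in the fit used, was 1100 without a filter, 108 with a filter at 6, 735 in the 4-group fit and 114 to 1679 with 1 array left out. The probe sets without overlap numbered 2570 higher and 3698 lower without a filter, and 650 and 651 with a filter at 6. The replicate SD without a filter was 0.462 in DPF+ and 0.292 in DPF-. The difference between the contrasts gave 1 call without a filter, KCNMB1. Of 522 values of 58 named genes under alternatives, 503 kept direction and side of the threshold, 19 passed it and none changed sign. The genes were chosen for groups without overlap, which fixes the sign in the 232 values with 1 array left out. It also fixes the sign where values under 4 are set to 4, and the replicate block leaves the difference unchanged by design. With 1 array left out, list medians ran from -0.535 to 0.175 (granulosa), -0.29 to 0.055 (cytosolic ribosomal), -0.258 to 0.133 (steroid), -0.545 to 0.335 (cholesterol), -0.007 to 0.16 (TGF-beta and BMP), -0.385 to 0.05 (interferon), -0.69 to 0.047 (MHC), -0.145 to 0.04 (oxidative phosphorylation), -0.483 to 0.043 (matrix), -0.123 to 0.065 (junctions) and -0.285 to -0.1 (homeobox), and the liver median was -0.008 without a filter. The causes were not tested. The number of arrays and the DPF+ spread limit the precision.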

Other observations

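DPF3, a subunit of chromatin-remodelling complexes, read 8.27 and 7.32 in DPF+ and 6.04 and 8.32 in DPF-, against 2.51 to 2.98 on the 4 HG arrays. RLN3 lay between 9.68 and 12.73 on the DPF arrays and between 7.91 and 8.08 on the HG arrays. TMEM132C, the second tested gene after GLT1D1 in the reference order, had a line difference of 1.15 without overlap, chosen after its values were seen.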
